A study of Homo sapiens with 14 samples.

Results

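The basal RNA profile of LY2 breast cancer cells was described from the 4 arrays labelled as control siRNA, untreated, out of 14 arrays in the series. LY2 is a line derived from MCF-7, an estrogen-dependent human breast cancer line, and it grows in the presence of anti-estrogens. The series crossed siRNA against SRC-1 (gene NCOA1) with 4-hydroxytamoxifen, the active metabolite of tamoxifen, and 8 of the other arrays enter here only in a check of replicate numbers. No comparison between groups was made. All cells had been propagated in phenol red-free medium with 10% charcoal-stripped serum, which is low in steroids, and 10 nM 4-hydroxytamoxifen, and were then kept for 72 hours without the drug. The cells of these 4 arrays received 40 nM of a scrambled siRNA, and 24 hours later 0.01% ethanol, the vehicle, for 2 hours. The baseline is therefore that of transfected cells of 1 line in low-steroid medium, shortly after withdrawal of an anti-estrogen. The arrays are titled replicates 1 to 4 and called biological, with nothing said about separate cultures, so each SD measures the spread between these arrays.

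Luminal cells of the mammary gland are defined by the transcription factors GATA3 and FOXA1 and, in a subset, by the estrogen receptor alpha (ESR1), which binds DNA once hormone is bound. FOXA1 opens chromatin for the receptor, coactivators such as the p160 family recruit acetyltransferases to it, and corepressors recruit deacetylases. Tamoxifen competes with estrogen for the receptor, and growth factor receptors of the ERBB, FGF and IGF families are the routes most often studied in cells that grow despite it.

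Signal was read on Affymetrix HG-U133 Plus 2.0 arrays and is given on the log2 scale as deposited. Each of 19775 genes was represented by the probe set with the highest mean over the 4 arrays, and its percentile is the rank of that mean among all 19775. Probe sets differ in how well they bind their target, so a rank is one of array signal and not of transcript number. As a reference for absent transcripts, the 95th percentile of 82 olfactory receptor genes was taken on each array, and this limit lay between 2.58 and 2.69. Genes above it on all 4 arrays numbered 13716, or 69.4% of all genes. Of these, 9699 genes (49.0% of all) also exceeded the median over genes of each array, which lay between 5.73 and 5.81, and are called bright. The remaining 4017 (20.3%) are called dim, 5121 genes (25.9%) were at or below the limit on every array and are called floor genes, and 938 (4.74%) changed sides between arrays. Choosing the brightest of several probe sets favours genes with many: with the same limit, 54.3% of genes with 1 probe set were above it and 92.7% of those with 6 or more. The 4 arrays differed little, with Pearson correlations over genes of 0.998 to 0.999 and a median SD of 0.11 among genes above the limit.

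**Figure D1:**
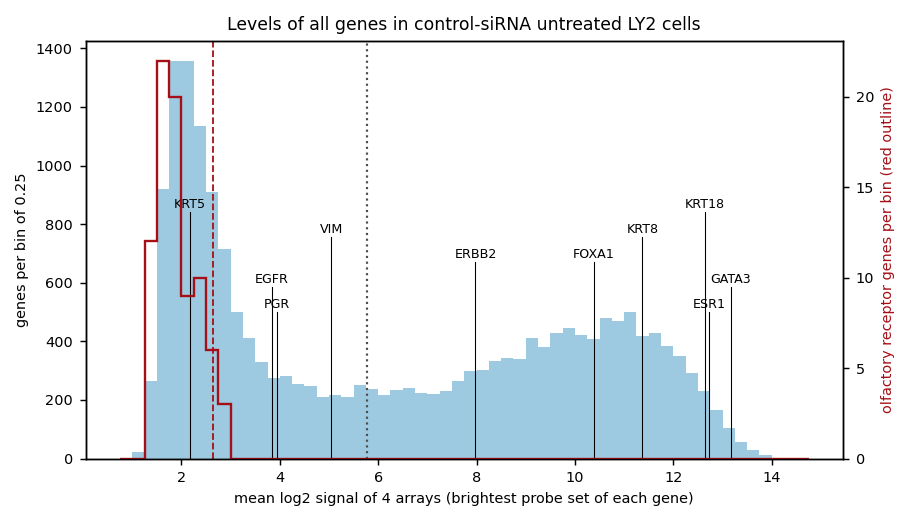
Mean log2 signal of each gene over the 4 arrays (blue, left axis, genes per bin of 0.25) and of the 82 olfactory receptor genes (red outline, right axis). The dashed line is the mean limit of 2.64, the dotted line the mean of the array medians over genes, and vertical lines mark named genes. Low signals pile up around the olfactory receptor genes, and a broad second mass holds FOXA1, KRT8, KRT18, ESR1 and GATA3.

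All 5 luminal markers that define the line's type were bright. GATA3, the zinc finger factor of luminal differentiation, read 13.15, 13.19, 13.19 and 13.15 on replicates 1 to 4, a mean of 13.17 ± 0.02 (SD, n = 4) at percentile 99.3. ESR1 read 12.76, 12.76, 12.66 and 12.75, a mean of 12.73 ± 0.05 at percentile 98.0. FOXA1 read 10.46, 10.35, 10.29 and 10.42, a mean of 10.38 ± 0.07 at percentile 79.1. Each of these factors lay far above both the limit and the median over genes on every array. Their probe sets did not carry equal support: the 3 sets of GATA3 had means of 12.47 to 13.17, whereas the 8 other sets of ESR1 lay between 1.99 and 4.73. The other set of FOXA1 had a mean of 6.55. KRT18 and KRT8, the paired keratins of simple epithelium, had means of 12.63 ± 0.13 and 11.37 ± 0.08 (SD, n = 4). Each rests on its only probe set here, named _x_at. The 6 further luminal markers, KRT19, CDH1, EPCAM, CLDN3, CLDN4 and CLDN7, were bright too.

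Of 28 luminal lineage factors measured, 24 were bright, against 49.0% of all genes, and their median level was 11.37. TFAP2C and TFAP2A, AP-2 factors that act with the receptor in luminal cells, had means of 12.81 ± 0.04 and 12.79 ± 0.08, next to GATA3 in rank. GRHL2, a Grainyhead factor that maintains epithelial junction genes, had 12.52 ± 0.05, and XBP1, a factor of the secretory pathway that estrogen induces, had 12.40 ± 0.06. MYB, SPDEF, TRPS1 and ZNF703 were bright as well, with means of 12.00, 11.79, 11.33 and 11.85. ELF5, a factor of the alveolar lineage, had 12.10 ± 0.09 from 1 probe set, while its other set had 4.29. Only 1 listed factor, ANKRD30A, a breast differentiation antigen (NY-BR-1), was a floor gene, at 1.51 ± 0.08 and percentile 1.6. PRDM1, a repressor known from plasma cells, changed sides of the limit between arrays at 2.57 ± 0.08.

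All 21 measured genes of luminal keratins and epithelial structure were above the limit and 20 were bright, against 69.4% and 49.0% of all genes. Their median level was 11.37. The surface glycoprotein CD24 led the list at 13.09 ± 0.04, followed by the adherens junction cadherin CDH1 at 12.99 ± 0.06 and the adhesion molecule EPCAM at 12.94 ± 0.02. ESRP1, which directs epithelial splicing, and the tight junction genes TJP1 and OCLN had means of 12.25, 12.29 and 12.05. The member with the lowest signal was the polarity gene CRB3 at 5.23 ± 0.12.

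Markers of other mammary and mesenchymal lineages ran from the floor to bright. Of 13 basal and myoepithelial genes, 8 were above the limit, 5 of them bright, and 5 were floor genes, beside 69.4%, 49.0% and 25.9% of all genes. KRT5, a keratin of basal cells, read 2.19, 2.15, 2.18 and 2.17, and KRT14, its partner, read 2.38, 2.08, 2.34 and 2.25. Both keratins stayed under the limit on every array, as did SOX10 at 2.13 ± 0.04. KRT17 and TP63, also chosen as basal markers, were not analysed here. P-cadherin (CDH3), otherwise a marker of myoepithelium, was bright at 9.69 ± 0.07, and ACTA2 and MYLK, genes of the contractile apparatus, had 9.15 ± 0.19 and 8.93 ± 0.11. Of 15 mesenchymal genes, 6 were above the limit and 6 were floor genes, among them the repressors of E-cadherin ZEB1 (2.22 ± 0.09), SNAI2 (1.87 ± 0.08) and TWIST1 (2.36 ± 0.12). The intermediate filament gene VIM was dim at 5.05 ± 0.34, and the matrix gene FN1 was bright at 8.70 ± 0.37.

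Cell types that a pure line should lack were represented by 14 fibroblast, 12 immune and 11 endothelial genes. Of these, 5, 6 and 7 were above the limit and 2, 1 and 0 were bright, beside 69.4% and 49.0% of all genes. The endothelial count above the limit was near the share of all genes. PTPRC (CD45), carried by all leukocytes, lay at 2.20 ± 0.03, and the T cell gene CD3D at 2.18 ± 0.04. The fibroblast proteoglycans DCN and LUM lay at 1.97 ± 0.04 and 1.66 ± 0.09. Of 3 endothelial markers, the cadherin CDH5, PECAM1 and VWF, CDH5 was lowest at 2.62 ± 0.03, beside the limit. The other 2 were above the limit, with a highest mean of 3.18. The 3 bright genes were COL5A1 at 6.01 ± 0.15, COL1A1 at 10.80 ± 0.10, a level carried by 1 of 5 probe sets while the other 4 had means of 2.55 to 6.89, and CD8A at 9.0 ± 0.20, which has 1 probe set. COL1A2, whose product joins that of COL1A1 in type I collagen, was a floor gene at 2.55 ± 0.08. Among 25 lineage factors of other tissues, 9 were floor genes and 3 were bright, beside 25.9% and 49.0% of all genes. The 3 were NKX2-1 of lung and thyroid (9.05 ± 0.06), GATA2 of blood (8.44 ± 0.23) and TBX5 of heart and limb (7.67 ± 0.05). In each of the latter, the other probe sets of the gene lay at 4.29 or less.

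**Figure D2:**
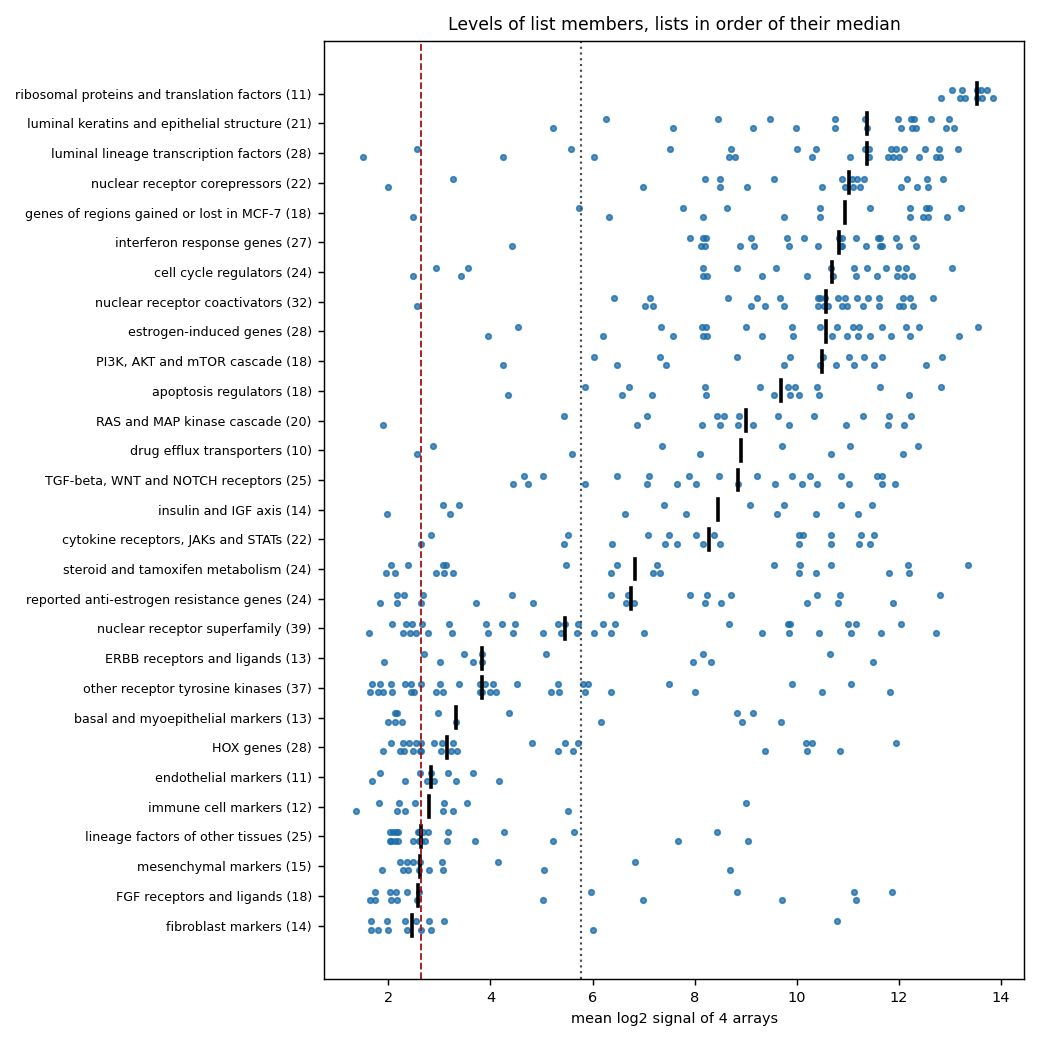
Mean log2 signal over 4 arrays of every measured gene of 29 lists, with the number of genes in brackets and lists in the order of their median (black bar). The dashed line is the mean limit and the dotted line the mean of the array medians over genes. Ribosomal genes, luminal factors and epithelial structure lie at the top, and fibroblast, FGF and mesenchymal lists at the bottom.

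The nuclear receptors spread over the whole range of the array. Of 39 measured, 30 were above the limit and 17 bright, beside 69.4% and 49.0% of all genes. Dim genes numbered 13 and floor genes 4, beside 20.3% and 25.9% of all genes. The median level was 5.46. ESR1 ranked first among the 39. It was followed by NR1D2, a heme-binding repressor of the circadian clock, at 12.04 ± 0.05, and by the vitamin D receptor VDR at 11.65 ± 0.11. PPARD, THRB and the glucocorticoid receptor NR3C1 came next, at 11.16 ± 0.09, 11.07 ± 0.06 and 11.01 ± 0.06. The common partner RXRA read 9.83 ± 0.08, ahead of RARA, a retinoic acid receptor that estrogen induces, at 6.21 ± 0.24. ESR2, the beta form of the estrogen receptor, read 6.09, 5.98, 5.95 and 6.08, at percentile 51.2, just above the median over genes on each array. PGR, the progesterone receptor and a classical target of ESR1, read 3.77, 3.74, 4.09 and 4.18, a mean of 3.95 ± 0.22 at percentile 41.2. PGR was thus above the limit on all 4 arrays and below the median over genes on all 4, and its second probe set lay under the mean limit at 2.40. The mineralocorticoid receptor NR3C2 lay at 2.46 ± 0.22, and NR2E1, known from neural stem cells, lay lowest at 1.62 ± 0.08.

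**Figure D3:**
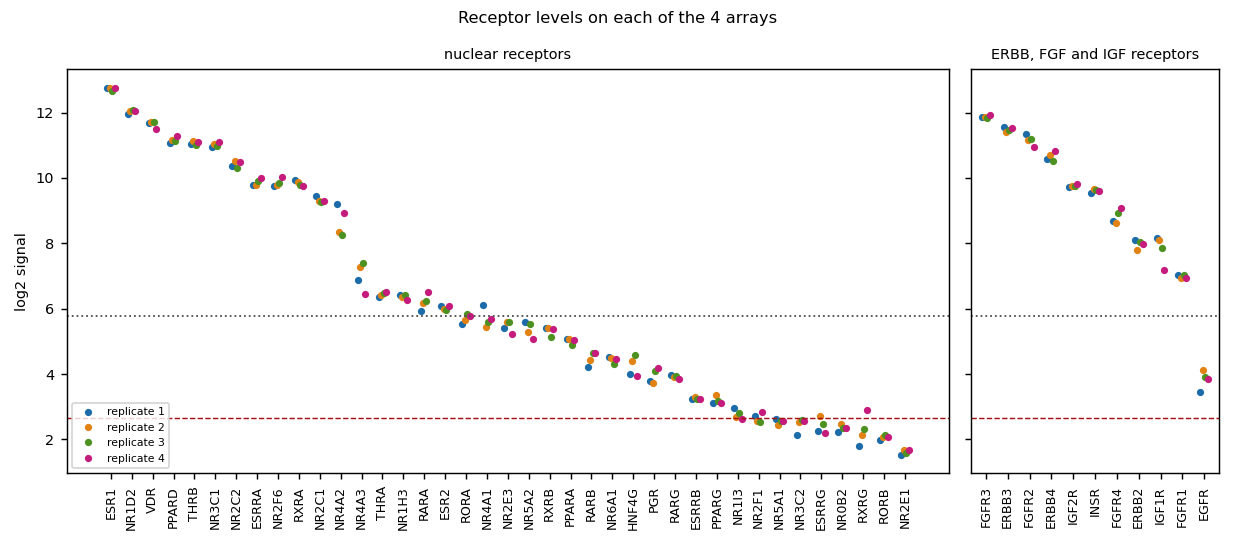
Log2 signal of nuclear receptors (left) and of ERBB, FGF and IGF receptors (right) on each of the 4 arrays, in order of their mean. Dashed and dotted lines are the mean limit and the mean of the array medians over genes. ESR1 leads at 12.73 while PGR lies at 3.95, and EGFR is the only growth factor receptor drawn below the median.

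Coregulators of these receptors were nearly uniformly bright. Of 32 coactivators, 31 were bright, with a median level of 10.58, and of 22 corepressors 20 were, with a median of 11.02. Of all genes 49.0% were bright, with 66.7% among genes with 3 probe sets and 77.9% among those with 6 or more. NCOA1, the gene of SRC-1 and the siRNA target in the other groups of the series, read 11.14, 11.52, 11.37 and 11.18 here, a mean of 11.30 ± 0.18 at percentile 87.9. Its other 3 probe sets had means of 7.22, 7.39 and 10.08. The related p160 coactivator NCOA2 read 11.12, 11.21, 11.14 and 11.26, a mean of 11.18 ± 0.07 at percentile 86.8. The acetyltransferases that p160 proteins recruit, CREBBP and EP300, had 12.29 ± 0.03 and 11.61 ± 0.07, and the arginine methyltransferase CARM1 had 10.95 ± 0.07. The RNA helicases DDX17 and DDX5, which bind the receptor, had 12.67 ± 0.02 and 10.55 ± 0.06. Mediator subunits ranked lower, with MED14 at 9.38, MED1 at 9.11 and MED12 at 7.13, while MED24 changed sides of the limit between arrays at 2.56 ± 0.04 from its 1 probe set.

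Among corepressors, CTBP1 led at 12.87 ± 0.03, ahead of the deacetylases HDAC1 at 12.58 ± 0.05 and HDAC2 at 12.55 ± 0.08. TBL1XR1, a subunit of the NCoR complex, had 12.36 ± 0.06, and HDAC3, the deacetylase of that complex, had 8.21 ± 0.02. NRIP1 (RIP140), a corepressor that estrogen itself induces, read 10.89, 11.03, 11.10 and 11.43. MTA1 of the NuRD complex had 12.17 ± 0.07, while MTA2, a paralog in the same complex, was dim at 3.27 ± 0.06 and each has few probe sets, 2 and 1. The only floor gene was ZNF366, a corepressor of ESR1, at 1.98 ± 0.02.

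All 28 measured estrogen-induced genes were above the limit and 26 were bright, against 69.4% and 49.0% of all genes. Their median level was 10.57, in cells held in low-steroid medium. TFF1 (pS2), a secreted trefoil peptide and the textbook target of ESR1, read 13.54, 13.56, 13.57 and 13.56 and ranked at percentile 99.8. AGR2, an endoplasmic reticulum disulfide isomerase, had 13.17 ± 0.05. CCND1, the G1 cyclin, read 12.14, 12.11, 12.14 and 12.16, and GREB1, a chromatin-bound cofactor of the receptor, read 10.92, 11.10, 10.87 and 11.04. No array stood apart for TFF1, AGR2, CCND1 or GREB1. STC2, CA12, IL6ST and PRLR followed CCND1 with means of 11.84, 11.68, 11.43 and 11.21. MYC, which drives ribosome and cell cycle genes, lay lower at 8.24 ± 0.20, and the apoptosis inhibitor BCL2 at 8.22 ± 0.15. For MYC replicate 1 stood apart, at 8.54 against 8.11 to 8.17 on the other arrays. The 2 members that were not bright were PGR and TFF3, the latter a trefoil gene like TFF1, which read 4.51, 4.30, 4.55 and 4.81.

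The ERBB axis was uneven. Of 13 receptors and ligands, 11 were above the limit but 5 were bright, beside 69.4% and 49.0% of all genes. The median level was 3.84. ERBB3, which signals only with a partner receptor, read 11.56, 11.42, 11.48 and 11.54, and ERBB4 read 10.57, 10.70, 10.53 and 10.82. ERBB2, the partner that binds no ligand, read 8.10, 7.80, 8.03 and 7.98, a mean of 7.98 ± 0.13 at percentile 60.7. EGFR read 3.46, 4.13, 3.91 and 3.84, a mean of 3.83 ± 0.28 at percentile 40.6. It was dim in its brightest probe set, and the other 8 of its 9 sets lay between 1.24 and 3.56. Among ligands, BTC and TGFA, which bind EGFR, were bright at 8.32 ± 0.25 and 8.16 ± 0.20. NRG1, a ligand of ERBB3 and ERBB4, was dim at 3.65 ± 0.06, EGF at 3.48 ± 0.35 was dim as well, and EREG was a floor gene at 1.91 ± 0.21.

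In the FGF family, receptors were bright and most ligands were not. FGFR3 had 11.87 ± 0.04, FGFR2 11.16 ± 0.16, FGFR4 8.83 ± 0.22 and FGFR1 6.98 ± 0.05. FGFR2 has 11 probe sets, and the other 10 had means of 1.64 to 4.65. Of 18 genes in all, 9 were floor genes, beside 25.9% of all genes. Each was a secreted ligand, from FGF8 at 2.57 to FGF10 at 1.65. The 2 bright FGF genes, FGF13 at 11.12 ± 0.15 and FGF12 at 9.71 ± 0.09, encode intracellular proteins that bind sodium channels and not receptor ligands.

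The insulin and IGF axis had 10 of 14 genes bright, against 49.0% of all genes, and a median level of 8.46. The adaptors IRS2 and IRS1 had 11.47 ± 0.25 and 10.38 ± 0.04, and the insulin receptor INSR had 9.61 ± 0.05. IGF1R read 8.17, 8.10, 7.86 and 7.17, a mean of 7.82 ± 0.46, with replicate 4 lowest and bright on all arrays. The ligand IGF1 was dim at 3.06 ± 0.04. The binding proteins IGFBP4, IGFBP5 and IGFBP3 had 11.20, 10.88 and 9.09, while IGFBP6 ran from 2.62 on replicate 1 to 3.93 on replicate 4.

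Of 37 other receptor tyrosine kinases, 8 were bright, 25 above the limit and 11 floor genes, beside 49.0%, 69.4% and 25.9% of all genes. The counts above the limit and at the floor were thus near the shares of all genes, and the median level was 3.82. RYK, a receptor for WNT ligands, led at 11.82 ± 0.07, followed by EPHB4 at 11.07 ± 0.08 and the hepatocyte growth factor receptor MET at 10.50 ± 0.18. RET, a receptor of the GDNF family that estrogen induces in breast cancer cells, read 9.79, 9.93, 9.78 and 10.17. FLT3, known from blood progenitors, was bright at 8.00 ± 0.09 on its 1 probe set. Platelet-derived growth factor receptors were low, with PDGFRA a floor gene at 1.79 ± 0.05 and PDGFRB beside the limit at 2.63 ± 0.14. Among the 3 members of any list just above the mean limit were STAT5A, PAX2 and CDX2, with means of 2.64 or 2.65, and just below it HOXD11, HOXD13 and PDGFRB, with means of 2.63 or 2.64. None of these 6 kept to 1 side of the limit on all 4 arrays.

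Downstream of the receptors, 18 of 20 genes of the RAS and MAP kinase cascade were bright (median 9.0), against 49.0% of all genes. In the PI3K, AKT and mTOR cascade 17 of 18 genes were bright (median 10.49). The phosphatase PTPN11 and the adaptor GRB2 had 12.25 ± 0.07 and 11.82 ± 0.07, and MAP2K1 (MEK1) had 12.11 ± 0.10. The feedback inhibitors SPRED2, DUSP6, SPRY1 and SPRY4, whose genes respond to ERK activity, had means of 11.30, 9.14, 8.84 and 6.88. NF1, the RAS GTPase-activating protein, was a floor gene at 1.90 ± 0.03 on its only probe set here. RHEB, the small GTPase that activates mTOR, had 12.85 ± 0.03, RPS6KB1 had 12.54 ± 0.04, and AKT1 read 11.53, 11.41, 11.53 and 11.56. MTOR itself was near the median over genes at 6.03 ± 0.06, and PIK3CD, the catalytic subunit known from leukocytes, was dim at 4.24 ± 0.23. INPP4B, a lipid phosphatase that is often lost in basal tumours, was bright at 11.12 ± 0.09.

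In the cytokine list 18 of 22 genes were bright (against 49.0% of all genes), with STAT6 at 11.52 ± 0.13, STAT3 at 11.26 ± 0.12 and JAK1 at 10.67 ± 0.10. The prolactin receptor PRLR read 11.36, 11.20, 11.21 and 11.08. STAT5A, which carries its signal in mammary epithelium, lay beside the limit at 2.64 ± 0.09 on 1 probe set, whereas STAT5B was bright at 7.50 ± 0.12. Receptors of TGF-beta, WNT and NOTCH ligands were above the limit in 25 of 25 genes and bright in 20, beside 69.4% and 49.0% of all genes. NOTCH2 and NOTCH3 had 11.93 ± 0.04 and 11.67 ± 0.03, and NOTCH4, known from endothelium, was dim at 4.44 ± 0.06. TGFBR1 had 11.67 ± 0.04, while its obligate partner TGFBR2 read 5.80, 5.67, 6.01 and 5.97, on both sides of the median over genes.

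Of 24 cell cycle genes, 20 were bright, against 49.0% of all genes, and the median level was 10.69. CDK1, CCNA2 and CCNB1, genes of dividing cells, had 12.26 ± 0.07, 12.10 ± 0.04 and 11.99 ± 0.14, and the proliferation marker MKI67 had 9.59 ± 0.09. MDM2, the ubiquitin ligase of p53, had 13.04 ± 0.09, and CDKN1A (p21), a p53 target, had 11.75 ± 0.06. CDKN2A, the gene of p16, read 2.54, 2.53, 2.43 and 2.45, under the limit on all arrays and in all 3 of its probe sets. MTAP, its neighbour and part of the same deletion in MCF-7, had 5 of 6 probe sets with means of 1.40 to 2.73 and 1 at 5.74. CDKN2B, on the other side of CDKN2A, had 1 set at 2.14 and 1 at 8.16. Genes of regions known to be gained in MCF-7 were high in rank: TRIM37 had 13.22 ± 0.02, ZNF217 12.95 ± 0.06, BRIP1 12.59 ± 0.07 and PPM1D 12.58 ± 0.04. In the list of gained or lost regions, 16 of 18 genes were bright, and copy number was not measured here. Among 18 apoptosis genes, 16 were bright, led by the inhibitors BIRC5 (12.82 ± 0.03) and MCL1 (12.21 ± 0.07), while the BH3-only gene BMF was dim at 4.34 ± 0.18.

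Of 24 genes of steroid and tamoxifen metabolism, 14 were bright and 4 were floor genes, beside 49.0% and 25.9% of all genes. The quinone reductase NQO1 read 13.36, 13.37, 13.29 and 13.44, and CYP1B1, which hydroxylates estradiol, had 12.21 ± 0.13. CYP2D6 and CYP3A4, the liver enzymes that activate tamoxifen, were dim at 3.08 ± 0.01 and 2.92 ± 0.09, and aromatase (CYP19A1) was dim at 3.06 ± 0.11. SULT1A1, which sulfates 4-hydroxytamoxifen, was bright at 10.66 ± 0.04, while the glucuronosyltransferases UGT1A1 and UGT2B17 were floor genes. Steroid sulfatase (STS), which frees estrone from its sulfate, had 9.56 ± 0.01, and HSD17B1, which reduces estrone to estradiol, had 7.33 ± 0.19. Of 10 drug efflux transporters 7 were bright (against 49.0% of all genes), among them ABCC1 at 12.37 ± 0.06 and ABCG2 at 8.10 ± 0.12. ABCB1, the P-glycoprotein gene, read 2.55, 2.62, 2.52 and 2.51, above the limit on 1 array only.

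Genes reported in studies of anti-estrogen resistance ran over most of the range of the array. Of 24, 15 were bright and 4 floor genes, beside 49.0% and 25.9% of all genes, and the median level was 6.75. The chemokine receptor CXCR4 had 11.88 ± 0.17 and HOXB7 10.85 ± 0.06. ADAM22, studied as a target of SRC-1, read 4.89, 4.83, 4.75 and 4.85 and was dim, and POU3F2 (BRN2) was near the median at 6.37 ± 0.18. SOX9, a progenitor factor, had 6.70 ± 0.46. The ETS factor ETS2, studied as a partner of SRC-1, was bright at 8.71 ± 0.22, while the related ETS1 was a floor gene at 2.17 ± 0.05. In the HOX genes, which mark position along the body axis, 6 of 28 were bright and 16 above the limit, beside 49.0% and 69.4% of all genes. Of those 6, 5 lie in the C cluster: HOXC10 at 11.95 ± 0.01, HOXC4 at 10.30, HOXC13 at 10.20, HOXC11 at 10.19 and HOXC6 at 9.38, and the other is HOXB7. Within the same cluster HOXC8 and HOXC12 were floor genes at 2.28 and 2.24.

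At the top of the array, 14 of the 20 genes with the highest mean encode ribosomal proteins, led by RPL37 at 14.26 ± 0.02. The others include the ATP synthase subunit ATP5F1E at 14.20, the mitochondrially encoded COX2 at 14.03, ACTB at 13.97, EEF1A1 at 13.84 and the chaperone HSP90AA1 at 13.83. TMEFF2, a transmembrane protein with follistatin domains known from prostate and brain, ranked 17 at 13.75 ± 0.09, on 1 probe set, while its other sets had means of 1.64 and 2.15.

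The share at the floor differed by type of gene. Of 16517 protein-coding genes 19.9% were floor genes, against 59.1% of 2658 long noncoding RNA genes and 42.2% of 424 transcribed pseudogenes. Over all lists, 75 of 583 measured members were floor genes and 367 were bright, beside 25.9% and 49.0% of all genes.

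Spread between arrays was of another order in a small set of genes. Among the genes above the limit, 152 (1.11%) ranged over at least 1 log2 unit and 20 over at least 2. Of these 152, 71 were lowest on replicate 1 and 61 on replicate 4, and 89 were highest on replicate 3. The number was 87 without replicate 1, 140 without replicate 2, 116 without replicate 3 and 78 without replicate 4. A range over 3 arrays cannot exceed that over 4, so some fall is built in.

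Members of the interferon response list made up 22 of these 152 genes and 6 of the 15 with the widest range. These counts cover list members only. These genes are switched on by type I interferon and are known for restricting viruses; many carry the interferon-stimulated response element in their promoters. Of 27 measured, 26 were bright, against 49.0% of all genes. Of the 27, 22 ranged over at least 1 unit, against 1.11% of all genes above the limit, and 8 over at least 2. IFIT1, a sensor of foreign RNA, read 11.99, 12.28, 12.32 and 9.76. IFIT3, which binds it, read 11.06, 11.69, 11.76 and 9.04, and ISG15, a ubiquitin-like modifier, read 12.25, 12.50, 12.81 and 11.80. The chemokine gene CXCL10 read 7.42, 9.09, 9.12 and 7.01. Replicate 4 was lowest for 23 of the 27 and replicate 1 for the other 4, while replicates 2 and 3 held the highest values for all 27. The mean over the list was 10.02, 10.60, 10.72 and 9.18 on replicates 1 to 4, and 10.13 over all arrays against 10.45 without replicate 4, and 26 genes stayed bright without it. The median SD was 0.67 in this list and 0.10 in the 556 members of other lists, of which 8 ranged over at least 1 unit. IFNB1, the interferon beta gene, was itself among the 15 genes with the widest range, at 4.66, 6.46, 7.08 and 5.32, again highest on replicates 3 and 2. Also among the 15, LAMP3 read 8.76, 10.19, 10.34 and 7.38, and TRIM22 read 7.42, 8.78, 8.91 and 6.27. RTP4, HERC6, SAMD9 and CXCL8, in the 15 too, were likewise highest on replicate 3 and next on replicate 2. The widest of all, RBM34, a gene of an RNA-binding protein, read 3.50, 3.73, 3.54 and 7.16, and EGR4, an immediate early factor, read 3.77, 3.93, 4.13 and 6.36, both high on replicate 4 only.

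**Figure D4:**
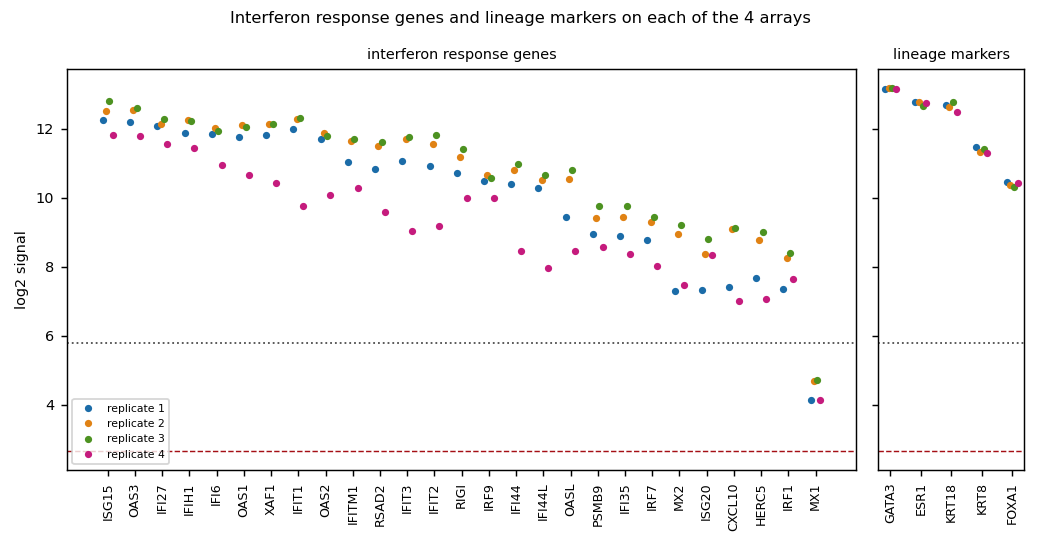
Log2 signal of 27 interferon response genes (left) and 5 luminal markers (right) on each of the 4 arrays, in order of their mean. Replicate 4 is lowest for 23 of the 27, with IFIT1 at 9.76 against 11.99 to 12.32 on the others, while the 5 markers overlap on all arrays.

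Replicate numbers are shared with the other groups, and the deviations of same-numbered arrays were not independent. Over 13716 genes, the deviation of each of the 4 arrays from its group mean correlated with that of the array of the same number in the untreated SRC1-siRNA group at -0.576 to -0.402, and in the tamoxifen-treated control group at -0.0737 to 0.118. For IFIT1 the means of each number over the 3 groups with all 4 numbers ranged over 0.49, against 2.56 within these 4 arrays. The corresponding ranges were 0.15 and 3.66 for RBM34, 0.61 and 2.73 for IFIT3, and 0.87 and 2.42 for IFNB1. For EGR4 they were 0.31 and 2.59, and for ESR1 0.027 and 0.098. Means of 3 arrays range over less than single arrays in general, so the 2 ranges are unlike measures. No label or header states a step that equalised the replicate numbers, and its part in the spread of these genes was not tested.

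The promoters of the interferon genes are shown because these genes moved together over the arrays. Sequences are the 250 bases before the transcription start in RefSeq on GRCh38.p14, 5′ to 3′ on the gene's strand, with capitals for matches to GAAANNGAAA, the core of the interferon-stimulated response element, on either strand (TTTCNNTTTC on the other). The windows are chr10:89392373-89392622 on the plus strand for IFIT1, chr10:89327747-89327996 (plus) for IFIT3, chr1:1013247-1013496 (plus) for ISG15, chr1:78620198-78620447 (plus) for IFI44L and chr4:76023498-76023747 (minus) for CXCL10. IFIT3 has 2 starts in the table and 1 is shown.
IFIT1: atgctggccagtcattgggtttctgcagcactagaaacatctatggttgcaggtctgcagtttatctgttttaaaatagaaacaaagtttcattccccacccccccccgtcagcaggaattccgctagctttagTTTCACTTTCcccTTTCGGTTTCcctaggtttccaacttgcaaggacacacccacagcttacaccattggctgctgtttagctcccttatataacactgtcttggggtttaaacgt
IFIT3: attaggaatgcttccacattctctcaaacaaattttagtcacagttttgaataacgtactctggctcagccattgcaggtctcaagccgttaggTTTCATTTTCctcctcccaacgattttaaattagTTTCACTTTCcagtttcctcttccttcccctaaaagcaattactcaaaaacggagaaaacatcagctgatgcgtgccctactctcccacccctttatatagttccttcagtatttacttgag
ISG15: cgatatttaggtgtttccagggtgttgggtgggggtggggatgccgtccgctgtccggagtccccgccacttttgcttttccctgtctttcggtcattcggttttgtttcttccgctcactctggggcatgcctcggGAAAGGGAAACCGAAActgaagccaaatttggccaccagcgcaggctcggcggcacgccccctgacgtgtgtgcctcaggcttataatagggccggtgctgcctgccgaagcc
IFI44L: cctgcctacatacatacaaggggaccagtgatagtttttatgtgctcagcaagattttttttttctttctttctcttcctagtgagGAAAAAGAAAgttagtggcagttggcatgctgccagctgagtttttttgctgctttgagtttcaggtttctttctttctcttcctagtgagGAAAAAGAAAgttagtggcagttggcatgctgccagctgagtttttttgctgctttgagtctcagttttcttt
CXCL10: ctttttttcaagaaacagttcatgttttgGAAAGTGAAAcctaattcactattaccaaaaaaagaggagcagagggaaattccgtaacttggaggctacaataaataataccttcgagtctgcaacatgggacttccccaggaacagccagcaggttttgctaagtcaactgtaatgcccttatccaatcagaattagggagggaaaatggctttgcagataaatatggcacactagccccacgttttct

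IFIT1 and IFIT3 each hold 2 matches on the reverse strand, ISG15 holds 2 that overlap on the forward strand, IFI44L holds 2 within a repeated stretch, and CXCL10 holds 1. Of the 22 interferon genes with a promoter in the table, 15 (68.2%) held the motif, against 1014 of all 27305 genes with a promoter (3.71%). Of 113 genes that ranged over at least 1 unit and have a promoter, 35 (31.0%) held it, and of the 96 of those outside the interferon list 24 (25%) did. Among all genes above the limit the share was 3.21%. The list is a chosen set and does not hold every gene that interferon induces. The 25% is therefore no share of genes outside the interferon response, and LAMP3, TRIM22, RTP4, HERC6 and SAMD9 varied over the arrays as the list did. A match describes the letters in this window and is no evidence of binding.

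Promoters also differed in composition with the level of the gene. A promoter was counted as rich in CpG where the observed number of CpG over that expected from its C and G exceeded 0.6, among 11469 measured genes with 1 start in the table. Of floor genes 28.7% had such a promoter, of genes on both sides of the limit 38.1%, of dim genes 60.9% and of bright genes 88.2%. The letters TATAAA in the last 50 bases before the start were found in 6.97% of floor genes and 1.64% of bright genes. FOXA1 (bright) and KRT5 (floor) show both kinds, with each CpG in capitals. The windows are chr14:37595250-37595499 (minus) for FOXA1 and chr12:52520395-52520644 (minus) for KRT5.
FOXA1: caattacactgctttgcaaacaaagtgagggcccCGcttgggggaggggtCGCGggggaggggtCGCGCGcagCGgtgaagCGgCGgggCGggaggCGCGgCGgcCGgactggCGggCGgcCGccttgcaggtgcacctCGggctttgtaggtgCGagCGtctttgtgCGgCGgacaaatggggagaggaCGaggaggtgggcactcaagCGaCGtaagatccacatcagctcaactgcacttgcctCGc
KRT5: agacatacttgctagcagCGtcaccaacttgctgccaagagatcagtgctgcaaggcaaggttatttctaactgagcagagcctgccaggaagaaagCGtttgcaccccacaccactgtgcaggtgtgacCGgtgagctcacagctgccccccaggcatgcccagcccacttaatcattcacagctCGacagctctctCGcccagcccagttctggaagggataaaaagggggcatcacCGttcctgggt

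FOXA1 holds 26 CpG in 250 bases, a ratio of 0.977 to expectation, and KRT5 holds 6, a ratio of 0.309. Within the lists, all 11 genes of gained or lost MCF-7 regions with 1 start were rich in CpG, and that list had a median level of 10.94. The relation was not strict: 9 of 11 HOX genes were rich in CpG, while the HOX list had a median level of 3.14. Of 14 metabolism genes with 1 start 2 were rich in CpG, and of 15 interferon genes 6 were.

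**Figure D5:**
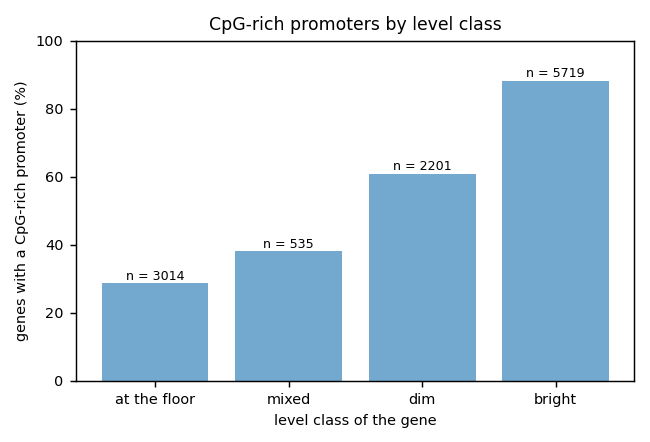
Share of genes with a promoter rich in CpG (percent, vertical axis from 0) in 4 classes of array level, with the number of genes above each bar. The share runs from 28.7% of floor genes to 88.2% of bright genes.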

How the data were processed

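The authors deposited 1 table of log2 signals for 54675 probe sets on 14 HG-U133 Plus 2.0 arrays. The base of the logarithm is not labelled and was read from the span of the values. R 2.9.2 is named in the submitters' processing notes, while the method of background correction, normalization and probe summary was not given in the sources used here. Per the labels, DNase-treated RNA went through NuGEN Ovation amplification and biotin labelling. Medians over probe sets of all 14 arrays lay between 3.44 and 3.51, and the number of arrays limits the precision.

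Values were used as deposited. After 62 control probe sets were removed, 54613 remained: 41091 with 1 gene symbol in the platform annotation, 1801 with several and 11721 with none. Of the first, 41037 were matched to RefSeq by gene ID, giving 19775 genes. A gene took its brightest probe set, and 9252 genes had 1. The limit on each array was the 95th percentile of the olfactory receptor genes, so 5 of the 82 exceed it by construction.

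Of 659 listed genes in 29 lists, 583 were measured and 76 were not analysed here. Members and lists were chosen with earlier results of these data known. Named genes are list members, the 20 highest means, the 15 widest ranges and the members nearest the limit. Families outside the lists and genes with 1 probe set were looked at after seeing the data. No test was made. Alternatives were other limits, the median of a gene's probe sets, quantile normalization and leaving out each array. A further alternative dropped probe sets named _s_at or _x_at, except for genes with no other. Python 3.11.15, pandas 2.3.3, numpy 2.4.6 and matplotlib 3.10.9 were used, and the code was tested on simulated data.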

Additional observations from a re-analysis of the deposited data

Results flagged for a closer look

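In a group of 4 arrays, the highest or lowest array was called apart where its gap to the nearest other array exceeded Dixon's critical share of the whole range, which chance gives in about 5% of cases. Of 251 values tested, 18 (7.17%) were called. Over all genes the share was 5.03%. The values tested include genes named for their wide range over these same arrays, so the higher share among them is no result.

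Replicate 4 stood apart for 7 genes. It was low for the interferon genes IFIT1, at 9.76 against 11.99 to 12.32 on the other arrays, and IFI44L, at 7.97 against 10.29 to 10.65. It was also low for the mitotic cyclin CCNB1 at 11.78 and for VDR at 11.50. It was high for RBM34 at 7.16 against 3.50 to 3.73, for EGR4 at 6.36 against 3.77 to 4.13, and for the luminal factor SPDEF at 12.09 against 11.65 to 11.72.

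Replicate 3 stood apart for 5 genes and 1 list, each by little. It was low for ESR1 at 12.66 against 12.75 to 12.76, for PTPN11 at 12.14, for ZNF217 at 12.86 and for NOTCH4 at 4.35, and high for ZNF703 at 11.99. The mean over the reported anti-estrogen resistance genes was 6.76 on it, against 6.74 on each other array.

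Replicate 1 stood apart for 3 genes and 2 lists. It was low for ACTA2 at 8.86 against 9.21 to 9.26, and for NR3C2 at 2.13, a signal under the limit. MYC was high on it at 8.54 against 8.11 to 8.17. The mean over the insulin and IGF axis was 7.46 on it against 7.59 to 7.60, and that over the TGF-beta, WNT and NOTCH receptors 8.55 against 8.59. No cause of these deviations was tested.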

How the results depend on the processing

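No paired analysis was possible because no result comes from a test. Setting the limit at the 90th or 99th percentile, or at the array median, moved the share of genes above it between 49.0% and 72.3%. With the array median as the limit, 9697 genes were at the floor, and the genes above it numbered 5 basal, 2 mesenchymal, 17 nuclear receptor, 5 ERBB, 8 other receptor tyrosine kinase, 6 HOX, 3 other-tissue, 2 fibroblast, 1 immune and 0 endothelial. At the 99th percentile, 3 fibroblast and 4 endothelial genes were above it. With probe sets named _s_at or _x_at dropped, except for genes with no other, 3 fibroblast and 3 immune genes were above the limit. Leaving out each array in turn moved the number of genes ranging over at least 1 unit from 152 to between 78 and 140. The lowest number was without replicate 4 and the highest without replicate 2, with 87 without replicate 1. Some fall is built in, because fewer arrays cannot widen a range. In a check chosen after seeing the data, only genes with 1 probe set were used and the limit was reset to the 62 olfactory receptor genes among them, which put 5534 of 9252 genes (59.8%) above it. Taking the median of a gene's probe sets moved 153 of 222 named levels by more than their SD. Among them were ESR1 to 3.75, FGFR2 to 2.18, NCOA1 to 8.73 and FOXA1 to 8.47. Dropping probe sets named _s_at or _x_at in this way moved 32, while quantile normalization moved 0. Leaving out 1 of 4 arrays cannot move a mean by its SD, so that rule says nothing there: without replicate 4, RBM34 had 3.59, IFIT1 12.20, IFIT3 11.50 and IFI44L 10.48. The main limits are that a level belongs to 1 probe set, that signals near the limit have no order, and that 4 arrays give a coarse SD.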

Other observations

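Gene families outside the lists were chosen by symbol after the data were seen, and their counts are descriptive beside the 69.4% of all genes above the limit. Families tied to other tissues lay mostly at the floor. Above the limit were 1 of 33 keratin-associated proteins of hair, 1 of 14 beta-defensins and 1 of 15 GABA-A receptor subunits. Floor genes among these families numbered 30, 12 and 12. Of 11 interferon alpha genes 0 were above the limit on all arrays and 7 were floor genes. Of 18 bitter taste receptors 1 was above it, TAS2R14 at 7.83. MAGEA1, a cancer-testis antigen expressed in testis and tumours, was bright at 10.49, while 4 of 7 MAGE-A genes were floor genes. Of 33 clustered protocadherins 10 were above the limit, with PCDHB16 highest at 7.82.

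All 32 complex I subunits of the respiratory chain were above the limit, with a median of 11.65, and 16 of 17 subunits of the 20S proteasome were, with a median of 12.36. Of 25 integrin subunits 21 were above the limit, led by ITGB5 at 12.88 and ITGB1 at 12.33, while 9 were bright. Of 20 claudins 11 were above the limit, led by CLDN12 at 11.55. Of 316 solute carriers 215 were, among them SLC39A6, a zinc importer that estrogen induces, at 13.07. Of 21 HLA genes 15 were above the limit, with HLA-C at 12.59, HLA-E at 11.33 and the class II gene HLA-DRB1 at 10.80. Potassium channel subunits were above the limit in 39 of 86 cases, with KCNK1 highest at 11.23.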
